A study of Mus musculus with 16 samples.

Results

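The RNA of mouse bone after ovariectomy, the surgical removal of the ovaries, was compared with that of bone after a sham operation, gene by gene, with attention to gene families outside the usual marker lists of bone, marrow and muscle. Genes were taken where the mean normalized count over the libraries was at least 50, which left 13715 of the 25239 genes of the authors' deposited table, and these held 99.9% of all its mean counts. That rule used only the mean count; the genes named below were in turn picked by fold change, p or mean count, or after their values were seen. Just inside that limit, 126 genes with a mean of 50 to 55 had a median log2 fold change of -0.23 and a median standard error (SE) of 0.39, and just outside it 139 genes with a mean of 45 to 50 had -0.26 and 0.42.

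The series profiled wild type mouse bone, with 4 input libraries from sham-operated animals (titled NC) and 4 from ovariectomised animals (titled OVX). An input library holds RNA before any pull-down; 8 further libraries, pulled down with an antibody to N6-methyladenosine (m6A, a methyl mark on adenosines of RNA), enter here only through the list of m6A peaks. The labels give no separate animal for each library, so the deposited p-values may measure technical spread. The sources used here do not give age, the interval after surgery or any pooling of animals, and the removed ovaries make hormones other than estrogen too.

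Ovariectomy stops the ovarian supply of estrogen and is the standard rodent model of postmenopausal osteoporosis. Estrogen loss is known to speed bone turnover and to change blood cell formation in the marrow, B cell development above all. Whole bone holds mineralised matrix with its cells, marrow, vessels, nerve and adhering muscle, so a difference between arms can arise in any of them. In such bulk RNA, fewer cells of a type and less RNA per cell cannot be told apart.

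The authors' deposited table lists each gene with its mean count, its log2 fold change and SE, and a raw and an adjusted p. It holds no value of a single library, so the spread of the 4 libraries of an arm can be seen only through the SE. It also does not say which arm is the numerator, and signs are therefore given as positive or negative, as deposited. A gene is called here where its deposited adjusted p is under 0.05. The tissue label fits the defining bone genes: Col1a1 had a mean count of 99868, the sclerostin gene Sost 2792 and the osteoclast protease Ctsk 12681 in the authors' deposited table, while the osteoblast factor Sp7 had 482.

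Of 13701 genes with an adjusted p, 926 were called positive (6.76%) and 898 negative (6.55%), together 13.3%. These shares are the background for every list below. The positive calls were smaller and more precisely measured, with a median of 0.43 (a fold of 1.34) and a median SE of 0.11. Negative calls had a median of -0.70 (a fold of 0.617) and a median SE of 0.20. A log2 difference of at least 1 was reached by 86 positive calls (9.29% of them) and 256 negative calls (28.5%). Over all 13715 genes the median was -0.01, with quartiles of -0.22 and 0.17. The marker lists of bone, marrow, muscle, nerve, vessel, interferon and cell division genes held 397 of the genes and 102 of the calls, so 860 positive and 862 negative calls lay outside them.

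**Figure D1:**
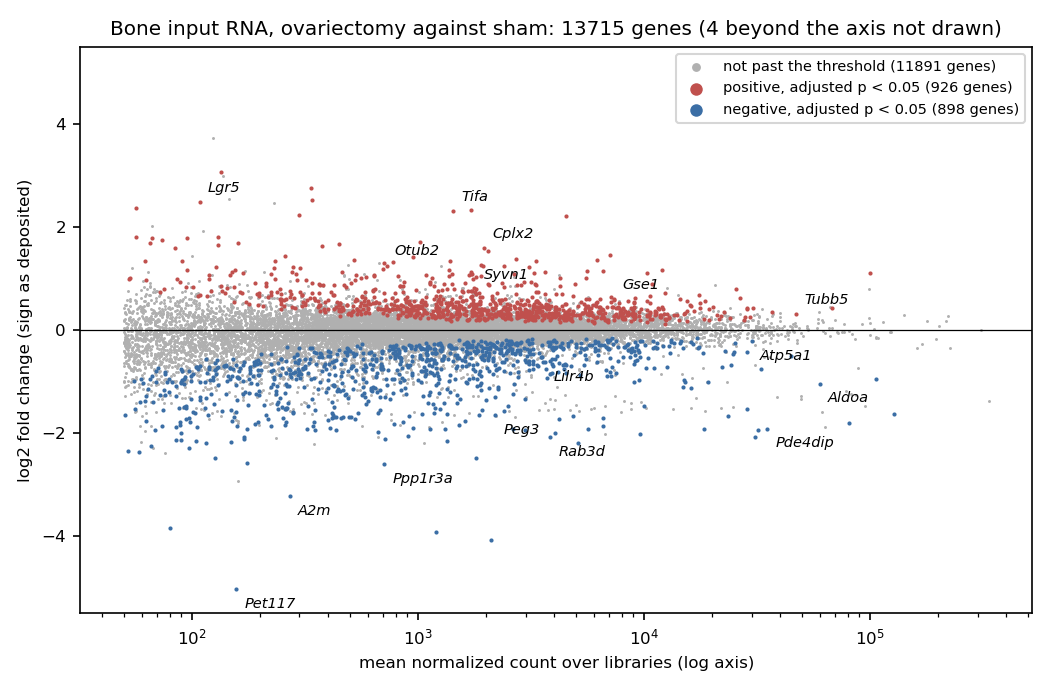
Each point is a gene, with its mean normalized count on a log axis and its log2 fold change, sign as deposited; red points are the 926 positive and blue points the 898 negative calls. A log2 difference of at least 1 was reached by 256 negative and 86 positive calls, and 4 genes beyond the axis are not drawn.

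The smallest p among the positive calls belonged to Otub2, a deubiquitinase of the ovarian tumour domain family, with 1.25 ± 0.10 (SE) at a mean of 728 counts (deposited adjusted p = 2.8e-35) in the authors' deposited table. Its 95% interval ran from 1.07 to 1.44, a fold of 2.39. Gse1, a coiled-coil protein found with histone demethylase complexes, came next with 0.59 ± 0.05 at a mean of 7423 counts (deposited adjusted p = 6.0e-28) in the authors' deposited table. Both genes had an SE below that of genes of like mean count, 0.645 times it for Otub2 and 0.470 times it for Gse1. The choice by p itself favours a small SE. Fndc9, which encodes a fibronectin type III domain, stood at 1.36 ± 0.16 in the authors' deposited table. Its annotated span overlaps that of Cyfip2, so reads of the pair could be mixed.

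Among the other positive calls with small p, several encode signalling adaptors or enzymes of immune cells. Plekha2, a phosphoinositide-binding adaptor, had 0.65 ± 0.08 in the authors' deposited table. Wdfy4, which dendritic cells need to cross-present antigen, had 0.57 ± 0.07 at a mean of 10393 counts in the authors' deposited table. Dgkd, a diacylglycerol kinase, had 0.40 ± 0.05, and the RNA-binding protein gene Rbm38 had 0.57 ± 0.07 in the authors' deposited table. Stambpl1, a further deubiquitinase, had 0.64 ± 0.08, and Gpd1l, a relative of glycerol-3-phosphate dehydrogenase, had 0.52 ± 0.06 in the authors' deposited table. These 6 genes all had SEs of at most 0.08, against a median of 0.16 over all genes. They were picked for small p, a choice that itself favours small SEs.

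Among the largest positive differences net of error, Myl4, a myosin light chain of atrium and embryonic muscle, had 1.71 ± 0.25 and Bfsp2, a lens filament protein, 1.63 ± 0.28 in the authors' deposited table. Cplx2, which clamps SNARE complexes before vesicle fusion, had 1.59 ± 0.30, and Dusp2, a phosphatase of MAP kinases in lymphocytes, had 1.43 ± 0.28 in the authors' deposited table. Zfp219, a zinc finger repressor whose span overlaps Arhgef40, had 1.35 ± 0.23, and the small GTPase gene Arl5c had 1.43 ± 0.21 in the authors' deposited table. Slc12a3, the thiazide-sensitive sodium chloride carrier best known from kidney, stood at 1.69 ± 0.41 at a mean of 65.3 counts in the authors' deposited table. Hist1h2ap, with 1.36 ± 0.30 at a mean of 6241 counts in the authors' deposited table, is one of many near-identical histone genes, and its reads could be split among copies.

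Among negative calls, Rab3d had the smallest p apart from the predicted gene Gm2274, which had -3.93 ± 0.36 in the authors' deposited table (chosen after its values were seen). Rab3d, a GTPase of secretory vesicles, had -2.07 ± 0.20 at a mean of 3866 counts (deposited adjusted p = 5.2e-21) in the authors' deposited table. Its 95% interval ran from -2.47 to -1.68, a fold of 0.238. A2m, a protease inhibitor of plasma, had -3.22 ± 0.51 at a mean of 271 counts in the authors' deposited table. The growth factor gene Egf had -1.86 ± 0.33, and Rasd2, a Ras-like GTPase, had -2.49 ± 0.42 in the authors' deposited table. Stfa2, a stefin that inhibits cysteine proteases, had -2.26 ± 0.43 in the authors' deposited table, and it belongs to a cluster of near-identical copies.

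Smaller negative differences with small p were found in genes of diverse roles. Lilr4b, a receptor of myeloid cells, had -0.62 ± 0.08 (deposited adjusted p = 3.6e-12), and its near-identical neighbour Lilrb4a had -0.42 ± 0.11 in the authors' deposited table, so reads could be split between them. Nbea, a scaffold of membrane traffic, had -0.75 ± 0.11, and Il18r1, a receptor chain for interleukin 18, had -0.59 ± 0.09 in the authors' deposited table. Fhl2, a LIM domain cofactor, had -0.94 ± 0.16, and the noncoding RNA Snhg11 had -1.54 ± 0.26 in the authors' deposited table. Etfdh, which passes electrons from fatty acid oxidation to the respiratory chain, had -0.45 ± 0.07 in the authors' deposited table.

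Several of the largest negative differences were of genes known from skeletal muscle that are in no marker list used here. Ppp1r3a, which targets a phosphatase to glycogen, had -2.60 ± 0.45 and Fbxo40, a muscle ubiquitin ligase subunit, had -1.93 ± 0.45 in the authors' deposited table. Aldoa, the glycolytic aldolase, had -1.04 ± 0.34 at a mean of 60186 counts, and Pde4dip had -1.91 ± 0.63 at a mean of 35191 counts in the authors' deposited table. All 67 skeletal muscle markers had a negative sign, 21 of them were called (45 at an unadjusted p under 0.05 in the deposited Wald test), and their median was -1.37. The part of muscle in these gene-level results was not tested.

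Among genes of the highest counts, Tubb5, a tubulin of dividing and blood-forming cells, had 0.31 ± 0.10 at a mean of 47391 counts in the authors' deposited table. Ucp2, an uncoupling protein common in blood cells, had 0.41 ± 0.10, and Lmnb1, a lamin of the nuclear envelope, had 0.44 ± 0.13 in the authors' deposited table. Numa1, which organises spindle poles, had 0.26 ± 0.06, and the helicase gene Ddx3x had -0.24 ± 0.08 in the authors' deposited table. Atp5a1, a subunit of ATP synthase, had -0.21 ± 0.07, while Gsn, which severs actin filaments, had -0.76 ± 0.22 in the authors' deposited table.

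The family and pathway lists numbered 80, of which 73 had at least 20 members, and 52 of the 80 had a median below 0. The largest share of positive calls was in the list of the unfolded protein response and the targets of ATF4. These genes answer misfolded protein in the endoplasmic reticulum and a shortage of amino acids, through chaperones, export for degradation and the transcription factor ATF4. Of 42 genes, 32 had a positive sign, 13 were called positive (against 6.76% of all genes) and 1 negative, and the median was 0.19.

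**Figure D2:**
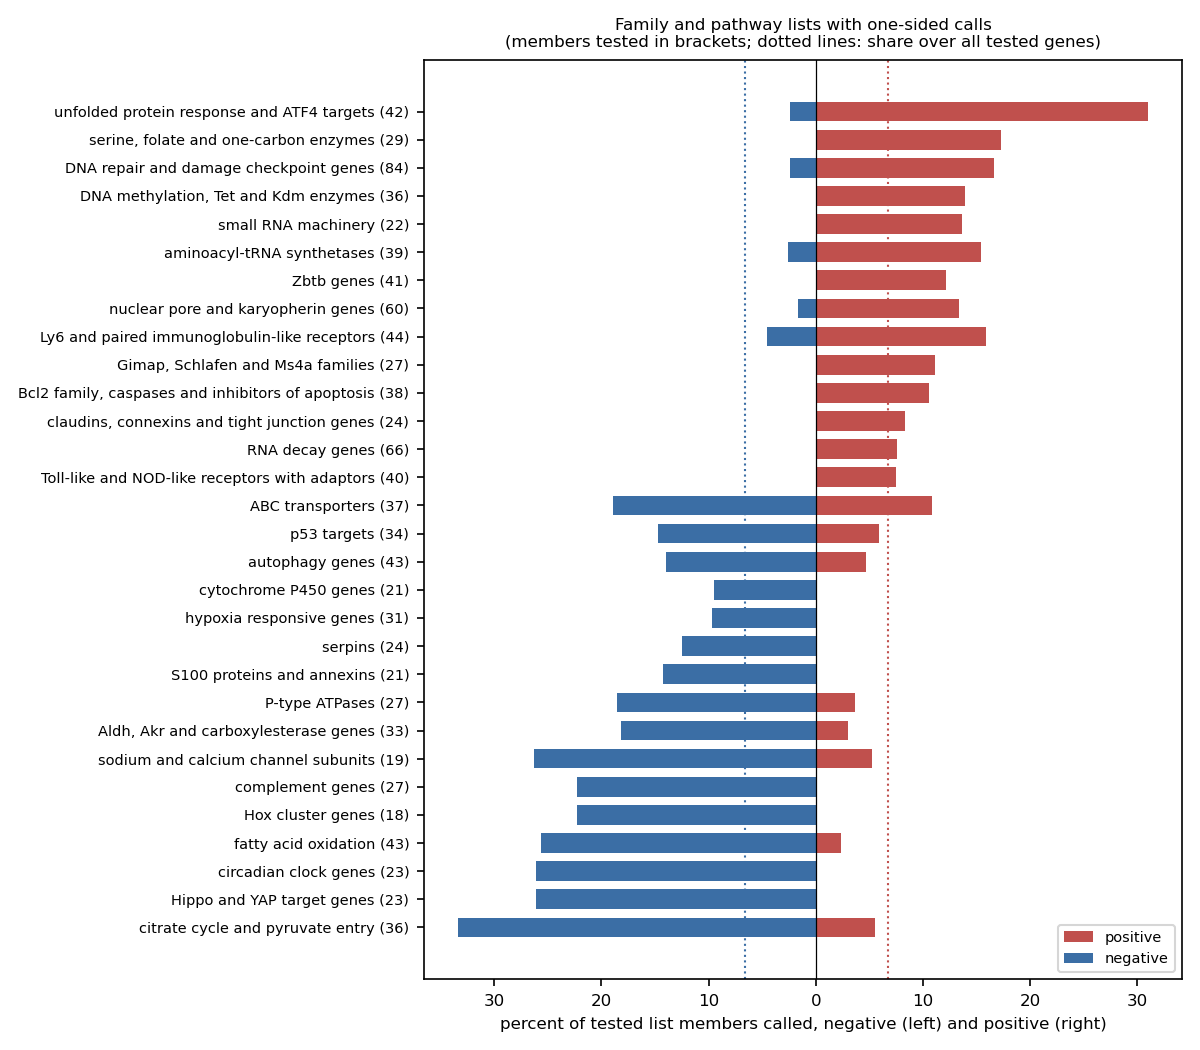
Bars give the percent of a list's tested members called negative (left, blue) or positive (right, red) for 30 lists of at least 15 members, chosen for one-sided calls, with the number tested in brackets. Dotted lines mark the shares over all tested genes, 6.55% negative and 6.76% positive; the unfolded protein response list lies furthest to the right and the citrate cycle list furthest to the left.

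Syvn1, the ubiquitin ligase Hrd1 that marks misfolded proteins for export and degradation, led with 0.80 ± 0.10 in the authors' deposited table; its span overlaps Mrpl49. Herpud1, a partner of Syvn1 at the same membrane, had 0.46 ± 0.08 (deposited adjusted p = 4.4e-06) in the authors' deposited table. The chaperone genes Hspa5 and Hyou1 had 0.25 ± 0.09 and 0.35 ± 0.08 in the authors' deposited table. Pdia4, Sdf2l1, Creld2 and Manf, which assist folding or are secreted under stress, had 0.45 ± 0.14, 0.43 ± 0.13, 0.41 ± 0.14 and 0.34 ± 0.10 in the authors' deposited table; these 4, Hspa5 and the next 2 genes were named after their values were seen. Atf4 itself had 0.30 ± 0.09, and Ero1lb, an oxidase that works with disulfide isomerases, had 0.29 ± 0.10 in the authors' deposited table. Ddit3, the CHOP factor, had 0.46 ± 0.13, and Ppp1r15a, which lets translation resume, had 0.36 ± 0.10 at a mean of 36880 counts in the authors' deposited table.

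The response was not uniform. Selenos, another membrane component of the export pathway, had -0.35 ± 0.08 (deposited adjusted p = 8.8e-04) in the authors' deposited table. The sensors Ern1 and Eif2ak3 had -0.03 ± 0.10 and 0.00 ± 0.07, and Xbp1 had -0.28 ± 0.17 in the authors' deposited table, none of them called. Trib3, a pseudokinase induced by ATF4, had a larger estimate with a wide error, 0.85 ± 0.37 (deposited adjusted p = 0.11) in the authors' deposited table. The genes of this paragraph other than Selenos were named after their values were seen. Plasma cell markers, which mark cells rich in these proteins, had 2 positive and 2 negative calls among 7 genes. B lineage markers had 22 positive calls among 28 and proliferation markers 6 among 32; their part in the positive lists described here was not tested.

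The ER stress response element, CCAAT then any 9 bases then CCACG, is the textbook binding site of ATF6 in these promoters. It was searched on both strands of RefSeq promoter windows (build GRCm38.p6, 250 bases before to 50 after the annotated start), and both this motif and the next were added after the values were seen. The element was found in 9 of the 35 promoters at hand from the unfolded protein response list and in 37 of all 27025 gene symbols with a promoter (0.137%). Of the 9 genes, Syvn1, Hspa5 and Creld2 were called positive, and 6 (Calr, Canx, Derl3, Dnajc3, Hsp90b1 and Pdia6) were not called. Stretches of 100 bases around the element are shown for the 3 called genes and for Dnajc3, a gene with a precise estimate near 0, with the element in capitals, read 5′ to 3′ on the gene's strand, which is the plus strand for all 4.
Syvn1 (chr19:6046492-6046591): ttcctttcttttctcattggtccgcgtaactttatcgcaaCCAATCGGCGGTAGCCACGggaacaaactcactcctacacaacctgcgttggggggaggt
Hspa5 (chr2:34771985-34772084): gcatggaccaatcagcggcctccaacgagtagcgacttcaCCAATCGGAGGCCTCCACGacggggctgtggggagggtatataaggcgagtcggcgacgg
Creld2 (chr15:88819480-88819579): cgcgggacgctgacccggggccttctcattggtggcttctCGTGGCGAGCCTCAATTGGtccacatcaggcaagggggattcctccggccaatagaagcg
Dnajc3 (chr14:118937787-118937886): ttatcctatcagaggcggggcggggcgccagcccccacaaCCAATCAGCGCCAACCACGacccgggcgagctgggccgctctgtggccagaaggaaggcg

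The element begins 44 bases before the annotated start of Syvn1 and 65 bases before that of Hspa5. In Creld2 it lies on the other strand, so that the capitals show its reverse complement, 126 bases before the start. The promoter of Dnajc3 holds the element 105 bases before the start, and the gene had 0.01 ± 0.05 in the authors' deposited table, beside 0.80 for Syvn1. A matching element was thus present in promoters of called and uncalled genes alike.

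The enzymes that make serine, glycine and one-carbon units leaned the same way. This pathway draws carbon from glycolysis into serine and then folate, feeding nucleotide synthesis, and several of its genes are ATF4 targets. Of 29 genes, 22 had a positive sign, 5 were called positive and none negative, with a median of 0.15. The calls were 17.2% of the list, against 13.3% of all genes called in either direction and 6.76% called positive. None of the 7 with a negative sign had an unadjusted p under 0.05 in the authors' deposited Wald test. Mthfd2, the mitochondrial folate enzyme of dividing cells, had 0.87 ± 0.14 (deposited adjusted p = 2.8e-07) in the authors' deposited table. Shmt2, which splits serine in mitochondria, had 0.49 ± 0.09 in the authors' deposited table. Psat1 and Phgdh, which make serine, had 0.40 ± 0.11 and 0.29 ± 0.08, and the purine enzyme gene Pfas had 0.32 ± 0.11 in the authors' deposited table.

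Asns, which makes asparagine and is a classical ATF4 target, had 0.59 ± 0.13 (deposited adjusted p = 2.1e-04) in the authors' deposited table. Amino acids themselves enter cells through solute carriers. Of 175 solute carriers, 15 were called positive and 11 negative, 14.9% in all, close to the background of 13.3%. A list of 27 plasma membrane amino acid carriers, put together after the values were seen and given only as a description, held 7 of the positive and 2 of the negative calls. Slc1a5, a glutamine carrier, had 0.71 ± 0.12, and Slc6a9, a glycine carrier, had 0.64 ± 0.10 in the authors' deposited table. Slc38a1, a further glutamine carrier, had 0.58 ± 0.11, and the aromatic amino acid carrier Slc16a10 had 0.48 ± 0.10 in the authors' deposited table. Slc7a1 and Slc7a5, carriers of arginine and of large neutral amino acids, had 0.73 ± 0.24 and 0.51 ± 0.17 in the authors' deposited table, and Slc43a1 had 0.52 ± 0.13 (Slc7a5 and Slc43a1 named after their values were seen).

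The negative carriers were of other kinds apart from 2. Slc6a7, a proline carrier of neurons, had -1.93 ± 0.53 and the imprinted amino acid carrier Slc38a4 had -1.72 ± 0.48 in the authors' deposited table. Slc2a4, the insulin-responsive glucose carrier of muscle and fat, had -0.99 ± 0.25, and the bicarbonate carrier Slc4a4 had -1.49 ± 0.46 in the authors' deposited table. Slc26a8, an anion exchanger known from sperm, had -0.88 ± 0.15 in the authors' deposited table, the smallest p of the negative carriers.

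Aminoacyl-tRNA synthetases, which load amino acids on their tRNAs, had 6 positive calls and 1 negative among 39, with a median of 0.07. The calls were 17.9% of the list in all, against 13.3% of all genes, and the positive ones 15.4% against 6.76%. Aars, the alanine enzyme, had 0.40 ± 0.06 (deposited adjusted p = 1.8e-09) in the authors' deposited table. Iars and Yars, for isoleucine and tyrosine, had 0.32 ± 0.07 and 0.31 ± 0.08 in the authors' deposited table. Vars and Cars, for valine and cysteine, had 0.34 ± 0.11 and 0.26 ± 0.08, and Aimp1, a scaffold of the synthetase complex, had -0.23 ± 0.07 in the authors' deposited table. Errors in this list were small, with a median SE 0.753 times that of genes of like count. Several cytosolic members were near 0 with tight errors, among them Qars with -0.03 ± 0.06 and Kars with -0.01 ± 0.06 in the authors' deposited table, chosen after their values were seen.

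The sequence TGATGCAA is a textbook binding sequence of ATF4 and its partners, and it was found on either strand in 4 of the 29 synthetase promoters at hand and in 279 of all 27025 symbols with a promoter (1.03%). Those 4 were Aars, Iars and Yars, all called positive, and Tars, with 0.07 ± 0.08 in the authors' deposited table and not called. In the unfolded protein response list it was in 4 of 35 promoters, of which only that of Herpud1 belonged to a called gene. The others, Atf3, Chac1 and Nupr1, were not called and had negative signs. Their values were -0.33 ± 0.17, -0.67 ± 0.43 and -0.04 ± 0.19 in the authors' deposited table. Stretches of 100 bases (RefSeq, build GRCm38.p6, plus strand in all 4 genes) show it in capitals, as the reverse complement TTGCATCA in Aars, Iars and Herpud1.
Aars (chr8:111033690-111033789): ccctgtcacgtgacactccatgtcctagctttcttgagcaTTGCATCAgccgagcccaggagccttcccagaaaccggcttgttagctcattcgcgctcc
Iars (chr13:49682080-49682179): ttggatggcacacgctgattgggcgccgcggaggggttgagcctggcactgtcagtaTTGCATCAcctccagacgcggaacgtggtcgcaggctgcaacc
Yars (chr4:129189853-129189952): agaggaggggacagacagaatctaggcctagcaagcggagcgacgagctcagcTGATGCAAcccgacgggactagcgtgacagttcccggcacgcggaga
Herpud1 (chr8:94386277-94386376): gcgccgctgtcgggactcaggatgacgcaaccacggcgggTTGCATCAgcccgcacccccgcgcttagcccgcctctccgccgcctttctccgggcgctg

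Across all called genes the same sequence was not on the positive side alone: it was in 7 of 748 promoters of positive calls (0.936%) and in 11 of 714 of negative calls (1.54%). The ER stress response element was in 3 and 1 of them. Among motifs chosen with the lists, the ETS sequence CCGGAAGT was in 8.96% of promoters of positive calls, 4.20% of those of negative calls and 8.81% of those of the other members. Of all symbols, 4.31% held it. TATAAA was in 8.96%, 11.3% and 9.08% in that order, against 15.7% of all symbols. The palindromic estrogen response element, GGTCA then any 3 bases then TGACC, was in none of the promoters of called genes and in 20 of all 27025, which says only that these letters are not in these windows.

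Of 84 DNA repair and damage checkpoint genes, 64 had a positive sign, 14 were called positive and 2 negative, with a median of 0.17. These calls were 16.7% and 2.38% of the list, against 6.76% and 6.55% of all genes. Neil1, a glycosylase of base excision repair, had 1.07 ± 0.18 (deposited adjusted p = 3.1e-07) in the authors' deposited table. Lig4 and Xrcc6, which join broken DNA ends, also in antigen receptor assembly, had 0.76 ± 0.16 and 0.70 ± 0.16 in the authors' deposited table. Rad51c and Bard1 of homologous recombination had 0.61 ± 0.18 and 0.45 ± 0.13 in the authors' deposited table. Xpa and Parp3 were the negative calls, with -0.47 ± 0.14 and -0.44 ± 0.12 in the authors' deposited table. All 32 proliferation markers were positive, 6 of them called, and 22 of 28 B lineage markers were called positive.

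Nuclear pore and transport genes had 8 positive calls and 1 negative among 60, with 48 of them positive in sign and a median of 0.12. Together these calls were 15% of the list, near the background of 13.3%. Positive calls were 13.3% of the list against 6.76% of all genes, and negative ones 1.67% against 6.55%. Nup210, a pore membrane protein, had 0.49 ± 0.08 and Pom121, another, 0.51 ± 0.13 in the authors' deposited table. Rcc1 and Rangap1, which set the Ran gradient across the nuclear envelope, had 0.41 ± 0.11 and 0.35 ± 0.10 in the authors' deposited table. Kpna1, an import adaptor, had -0.20 ± 0.06 in the authors' deposited table. DNA methylation, Tet and Kdm enzymes had 5 positive calls and none negative among 36, 13.9% in all, near the background of 13.3%. At an unadjusted p under 0.05 the deposited Wald test gave 10 and 2. Mbd4, a glycosylase of methylated sites, had 0.57 ± 0.12, and Kdm1b, a histone demethylase, had 0.50 ± 0.10 in the authors' deposited table. Kdm5c, on the X chromosome, had 0.36 ± 0.08 in the authors' deposited table.

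In the small RNA machinery, 3 of 22 genes were called positive and none negative by the deposited Wald test (3 and 1 at an unadjusted p under 0.05). That is 13.6%, near the background of 13.3%, and the median was 0.01 with 12 positive and 10 negative signs. All 3 called genes belong to the silencing complex. Ago2, which slices target RNA, had 0.42 ± 0.08, Ago1 had 0.29 ± 0.10 and their partner gene Tnrc6b had 0.26 ± 0.08 in the authors' deposited table. Of 41 Zbtb genes, a class of zinc finger factors with a BTB domain, 30 had a positive sign. The deposited Wald test called 5 of them positive and none negative (10 and 3 at an unadjusted p under 0.05). These calls were 12.2% of the list, near the background of 13.3%. Zbtb7a, which acts in red cell and lymphocyte formation, had 0.30 ± 0.05 in the authors' deposited table. The larger family of Zfp, Zscan and Zkscan zinc finger genes was different in its share: 14 positive and 8 negative calls among 352, 6.25% in all, less than the background of 13.3%.

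Single transcription factors of other families moved strongly. Foxp1, which B cell development needs, had 0.87 ± 0.18 in the authors' deposited table. Foxo3 had 0.49 ± 0.07 while its relative Foxo4 had -0.28 ± 0.10 in the authors' deposited table. Among forkhead genes, 3 were called positive and 2 negative of 17. Tbx15, a factor of limb skeleton and muscle, had -1.57 ± 0.43, and Klf15, a factor of muscle metabolism, had -1.25 ± 0.35 in the authors' deposited table.

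**Figure D3:**
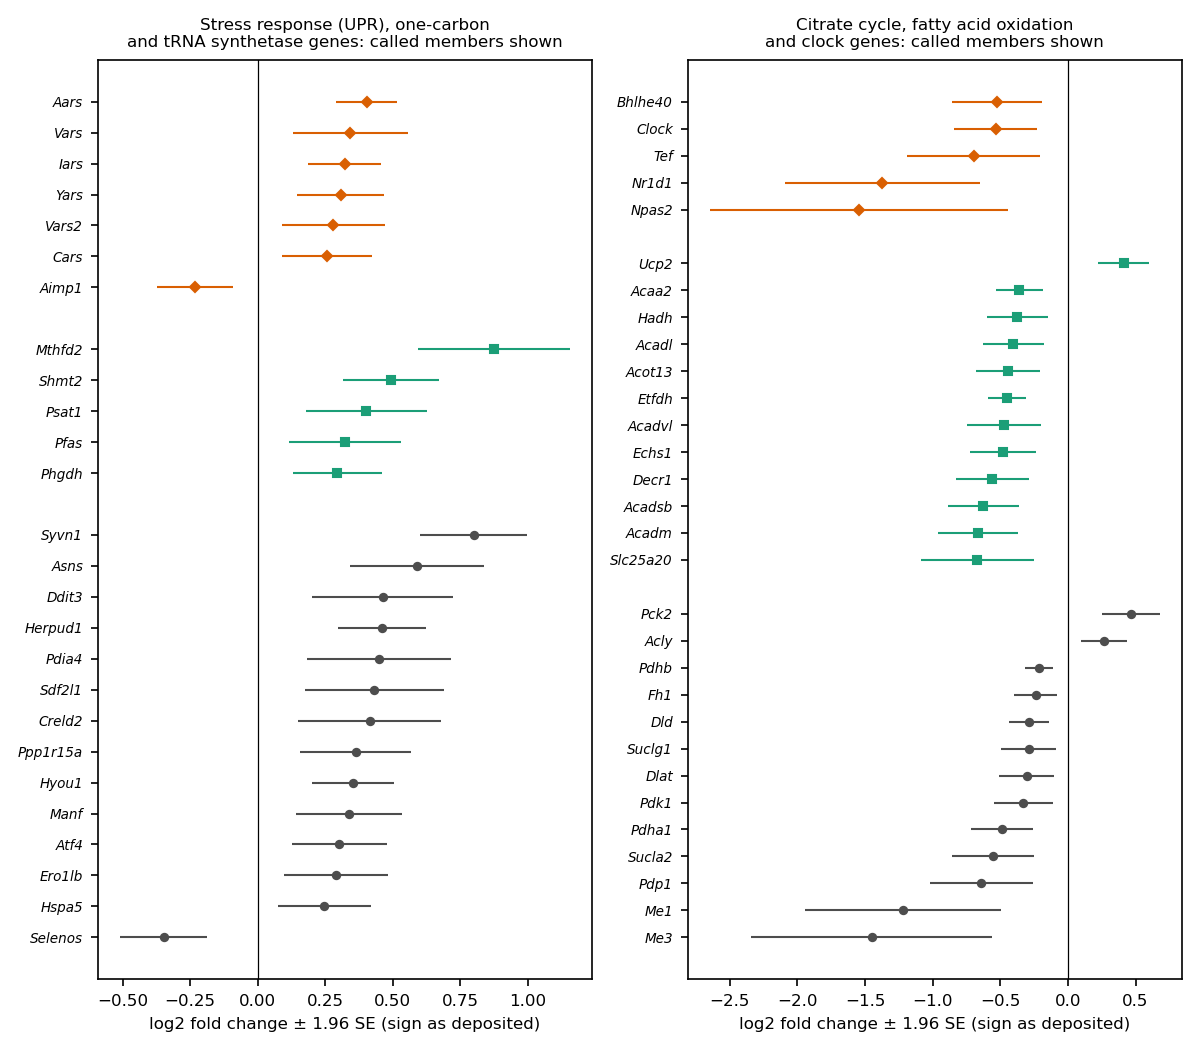
Points are log2 fold changes, sign as deposited, with bars of the 95% interval, for called members of 6 lists: at left from top tRNA synthetase, one-carbon and unfolded protein response genes, at right clock, fatty acid oxidation and citrate cycle genes. Of the genes shown, at left all but Aimp1 and Selenos lie above 0, and at right all but Ucp2, Pck2 and Acly lie below it.

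The citrate cycle with its entry from pyruvate had the largest share of negative calls of the lists with at least 15 members: 12 negative and 2 positive among 36, with 30 of the 36 negative in sign and a median of -0.21. The pyruvate dehydrogenase complex was represented by 4 of its subunits, Pdha1 with -0.49 ± 0.12, Pdhb with -0.21 ± 0.05, Dlat with -0.30 ± 0.10 and Dld with -0.29 ± 0.08 in the authors' deposited table. Sucla2 and Suclg1, subunits of succinyl-CoA ligase, had -0.55 ± 0.15 and -0.29 ± 0.10 in the authors' deposited table. Me1 and Me3, which encode malic enzymes, had -1.22 ± 0.37 and -1.45 ± 0.45 in the authors' deposited table. Positive calls were 2, namely Pck2, the mitochondrial carboxykinase and an ATF4 target, with 0.46 ± 0.11, and Acly, which makes cytosolic acetyl-CoA for lipid synthesis, with 0.27 ± 0.09 in the authors' deposited table. Pdhb, Dlat, Dld and Suclg1 were named after their values were seen.

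Fatty acid oxidation had 11 negative calls and 1 positive among 43, with 38 negative in sign and a median of -0.22. The acyl-CoA dehydrogenase genes Acadm and Acadsb had -0.67 ± 0.15 and -0.62 ± 0.13 in the authors' deposited table. Decr1, which handles unsaturated chains, had -0.56 ± 0.14, and Slc25a20, the carnitine carrier, had -0.67 ± 0.21 in the authors' deposited table. Cpt1b, the carnitine enzyme of muscle, had -1.16 ± 1.01, and Cpt1a, that of liver and blood cells, had -0.16 ± 0.17 in the authors' deposited table, neither called (both chosen after their values were seen). The only positive call, Ucp2, is given above. Cholesterol synthesis and uptake showed no such lean: of 29 genes 14 were positive and 15 negative in sign, and only Insig1 was called, with -0.36 ± 0.13 in the authors' deposited table.

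Of 39 genes of glycolysis and the pentose phosphate pathway, 27 had a negative sign and 3 were called positive and 4 negative, with a median of -0.16. The calls were 17.9% of the list, against 13.3% of all genes. The muscle phosphofructokinase Pfkm had -1.11 ± 0.37 at a mean of 14945 counts, while the liver and blood form Pfkl had 0.27 ± 0.07 in the authors' deposited table. Ldhb had -0.94 ± 0.24, and the hexokinase Hk1 had 0.30 ± 0.10 at a mean of 14007 counts in the authors' deposited table. Muscle markers lay at a median of -1.37 and erythroid markers at 0.41 with 10 of 23 called positive; their part in the fuel lists was not tested.

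Genes of mitochondrial import and dynamics had 1 positive and 3 negative calls among 56 (7.14%, under the background of 13.3%) and a median of 0.00. Mfn1, which fuses mitochondria, had -0.69 ± 0.15, and Clpx, a matrix chaperone, had -0.41 ± 0.09 in the authors' deposited table. Pink1, which marks damaged mitochondria for removal, had -0.60 ± 0.13, and the mitophagy receptor gene Bnip3 had -0.89 ± 0.26 in the authors' deposited table. Autophagy genes as a list had 6 negative and 2 positive calls among 43, 18.6% against 13.3% of all genes. Sqstm1, a cargo receptor, had -0.32 ± 0.08 at a mean of 17580 counts and Wipi2 had 0.37 ± 0.08 in the authors' deposited table.

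The circadian clock is a feedback loop in which CLOCK and its relative NPAS2 pair with ARNTL (BMAL1) to switch on Per, Cry and Nr1d genes, whose products act back on the loop. Of 23 clock genes, 6 were called negative and none positive by the deposited Wald test (11 and 3 at an unadjusted p under 0.05), and the median was -0.50. A negative sign was seen in 16. Nr1d1 (Rev-erb alpha), a repressor of Arntl, had -1.37 ± 0.37 in the authors' deposited table, a fold of 0.386. Npas2 had -1.54 ± 0.56 in the authors' deposited table. Clock had -0.53 ± 0.16, Tef -0.70 ± 0.25 and Bhlhe40 -0.52 ± 0.17 in the authors' deposited table.

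With positive signs, Arntl had 0.61 ± 0.23 (deposited adjusted p = 0.059) and Per1 had 0.61 ± 0.28 (deposited adjusted p = 0.14) in the authors' deposited table, neither called. Dbp and Nr1d2, 2 outputs of the loop, had -0.65 ± 0.44 and -0.60 ± 0.24 in the authors' deposited table, also not called. These 4 genes were chosen after their values were seen. Errors in the list were wide, at a median of 1.63 times that of genes of like count. The sources used here do not state the time of day at collection, and its part in these values was not tested. Nr1d1 overlaps Thra in the annotation, so its reads could be shared.

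Of 18 Hox genes, 16 had a negative sign, 4 were called negative and none positive by the deposited Wald test (10 and 0 at an unadjusted p under 0.05), with a median of -0.59. Hoxc10 had -1.20 ± 0.39, Hoxc9 -0.97 ± 0.33, Hoxb8 -0.79 ± 0.23 and Hoxa10 -0.73 ± 0.26 in the authors' deposited table. Hox factors pattern the trunk and limbs, and Hoxb8 is also known from marrow progenitors. Hoxa5 and Hoxb3 were the 2 positive ones, with 0.24 ± 0.25 and 0.38 ± 0.58 in the authors' deposited table, not called and chosen after their values were seen.

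Of 39 receptor tyrosine kinase, FGF and related ligand genes, 37 had a negative sign and only 3 were called, all negative, 7.69% against 13.3% of all genes. At an unadjusted p under 0.05 the deposited Wald test gave 14 negative and 0 positive. Fgf7, a stromal growth factor for epithelium, had -0.96 ± 0.18 (deposited adjusted p = 8.7e-06), and its receptor gene Fgfr2 had -0.59 ± 0.20 in the authors' deposited table. The 2 with a positive sign were Flt3, a receptor of blood progenitors, with 0.12 ± 0.11, and Ret with 0.59 ± 0.39 in the authors' deposited table, named after their values were seen. Of 15 Hedgehog genes, 14 had a negative sign and none of these was called (3 had an unadjusted p under 0.05 in the deposited Wald test), while Sufu, which holds the pathway's Gli factors back, had 0.56 ± 0.16 (deposited adjusted p = 0.007) in the authors' deposited table. The median of the Hedgehog list was -0.42.

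The Hippo kinases hold back YAP and TAZ, which act in the nucleus with TEAD factors. Of 23 genes of this pathway, 6 were called negative and none positive by the deposited Wald test (8 and 1 at an unadjusted p under 0.05), and the median was -0.43. Tead1 had -1.55 ± 0.29 (deposited adjusted p = 1.3e-05), and Wwtr1 (TAZ) had -0.98 ± 0.35 in the authors' deposited table. The angiomotin genes Amotl1 and Amotl2 had -0.89 ± 0.31 and -0.52 ± 0.12, and Vgll2, a cofactor of muscle, had -1.73 ± 0.57 in the authors' deposited table. Of the kinase genes, none of those named here was called, with Lats1 at 0.07 ± 0.10, Lats2 at -0.06 ± 0.06, Stk3 at -0.03 ± 0.16 and Stk4 at 0.15 ± 0.09 in the authors' deposited table (chosen after their values were seen). Marrow stroma markers were negative in 17 of 17, 5 of them called, with a median of -0.51; their part and that of muscle in these lists was not tested.

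Complement proteins tag cells and debris for clearance. Of 27 complement genes 6 were called negative and none positive by the deposited Wald test (8 and 0 at an unadjusted p under 0.05), with a median of -0.28. C4b, a central component of the cascade, had -0.33 ± 0.09 in the authors' deposited table. C1s1 and C1s2, near-identical copies, had -0.76 ± 0.23 and -0.95 ± 0.29 in the authors' deposited table. C1q is made chiefly by macrophages, and C1qa, C1qb and C1qc each had 0.04 ± 0.18 in the authors' deposited table (chosen after their values were seen).

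Imprinted genes, expressed from 1 parental copy and many of them fetal growth regulators, had 31 of 39 negative in sign but only 3 calls, all negative (7.69%); the deposited Wald test gave 10 negative and 1 positive at an unadjusted p under 0.05. Peg3, a paternally expressed zinc finger gene of mesenchyme and muscle, had -1.64 ± 0.34 (deposited adjusted p = 9.0e-05), and Nnat had -1.20 ± 0.41 in the authors' deposited table. The neighbours H19 and Igf2 had -0.89 ± 0.67 and -0.80 ± 0.48 in the authors' deposited table, not called and chosen after their values were seen.

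Ion channel lists differed from one another. Chloride channels and anoctamins had 16 of 22 positive in sign and a median of 0.12. Their 1 positive and 2 negative calls were 13.6% of the list, near the background of 13.3%. Sodium and calcium channel subunits had 5 negative calls and 1 positive among 19. The muscle sodium channel Scn4a had -1.28 ± 0.37, while Cacna1g, a T-type calcium channel, had 0.61 ± 0.17 in the authors' deposited table. Potassium channels had 5 negative and 3 positive calls among 41 (19.5%) and a median of -0.34. Kcnj12 had -1.87 ± 0.45 and Kcna3, the channel of lymphocytes, 0.56 ± 0.19 in the authors' deposited table. TRP, polycystin and Piezo channels had no call among 17 in the deposited Wald test (1 positive and 2 negative at an unadjusted p under 0.05), and the mechanosensor Piezo1 had 0.06 ± 0.11 at a mean of 7771 counts in the authors' deposited table. ABC transporters had calls in both directions, 4 positive and 7 negative among 37 (29.7%). The cholesterol exporter Abcg1 had 0.60 ± 0.13 and its relative Abcg4 0.59 ± 0.16, while the drug exporter genes Abcb1a and Abcb1b had -1.02 ± 0.28 and -0.46 ± 0.17 in the authors' deposited table.

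Ubiquitin ligase subunits of the F-box, Klhl and cullin families had 12 positive and 16 negative calls among 127, against a background of 13.3%. Klhl14, a B cell gene, had 1.21 ± 0.29 and Fbxl19 had 0.49 ± 0.11 in the authors' deposited table. Klhl30, known from muscle, had -1.72 ± 0.52, and Fbxo31 had -0.80 ± 0.18 in the authors' deposited table. Actin regulators, septins and nonmuscle myosins had 3 positive and 10 negative calls among 98, 13.3% in all, which is the background share. Among the negative calls, Myh14 had -1.61 ± 0.41 and Fermt2 (kindlin-2), which activates integrins, had -1.15 ± 0.26 in the authors' deposited table.

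Cilium genes had 8 positive and 6 negative calls among 78, with a median of -0.10. These calls were 10.3% and 7.69% of the list, against 6.76% and 6.55% of all genes. Drc7, a subunit of the dynein regulator of motile cilia, had 2.24 ± 0.32, and Rsph9, of the radial spoke, had 1.13 ± 0.31 in the authors' deposited table. Dync2li1 and Cc2d2a, of transport into the cilium and of its gate, had -0.95 ± 0.19 and -0.96 ± 0.24 in the authors' deposited table. Among p53 targets, 2 were called positive and 5 negative of 34 (20.6%). Their signs were mixed, 15 positive and 19 negative, with a median of -0.04. Trp53 itself had 0.33 ± 0.11, and among the negative calls Ccng1, Plk2 and Tigar had -0.67 ± 0.18, -0.82 ± 0.18 and -1.12 ± 0.23 in the authors' deposited table.

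Genes often used to scale quantitative PCR were put together after the values were seen. Of 19, 2 were called: Tfrc, which is also an erythroid marker, with 0.67 ± 0.13, and Sdha, a citrate cycle and respiratory subunit, with -0.25 ± 0.08 in the authors' deposited table. Gapdh had -0.36 ± 0.24 and Actb 0.14 ± 0.11, while Hprt had 0.04 ± 0.10, Rpl19 0.04 ± 0.07 and Rps18 0.03 ± 0.08 in the authors' deposited table. The intervals of Gapdh and B2m (0.27 ± 0.14) allow differences past 0.5 in the authors' deposited table. Over all genes, 1432 (10.4%) had a 95% interval within 0.25 of 0 on either side and 6738 (49.1%) within 0.5. The best bounded gene was Rab11b, a GTPase of recycling vesicles, whose interval ran from -0.06 to 0.09 in the authors' deposited table.

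The share of calls changed with the mean count. The genes were put in 10 classes of equal size by mean count. From the lowest class to the highest, positive calls went from 1.98% to 10.1%, while negative calls lay between 5.47% and 7.73% in all 10. The median log2 fold change went from -0.21 to 0.03 over the same classes, and the median SE from 0.34 to 0.11. Negative calls thus outnumbered positive ones 91 to 27 in the lowest class, and positive ones outnumbered negative ones 138 to 96 in the highest.

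The span of a gene on the genome, from the RefSeq annotation GRCm38.p6 in which 13648 of the 13715 symbols were found, went with the direction of calls. Of 10 classes by span, the shortest (median 2685 bases) had 6.53% positive and 3.82% negative calls. The longest (median 188980 bases) had 3.82% positive (exact 95% interval 2.87 to 4.98) and 11.6% negative (9.95 to 13.4). The intervals treat genes as independent, which they are not, and cover counting error only. With only genes of a mean count of 1000 or more, the shortest class had 10.7% positive and 3.72% negative, and the longest had 39 positive and 79 negative calls among 709. Without the marker genes the longest class had 3.46% and 11.5%. RNA integrity is not stated in the labels, and its part was not tested.

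**Figure D4:**
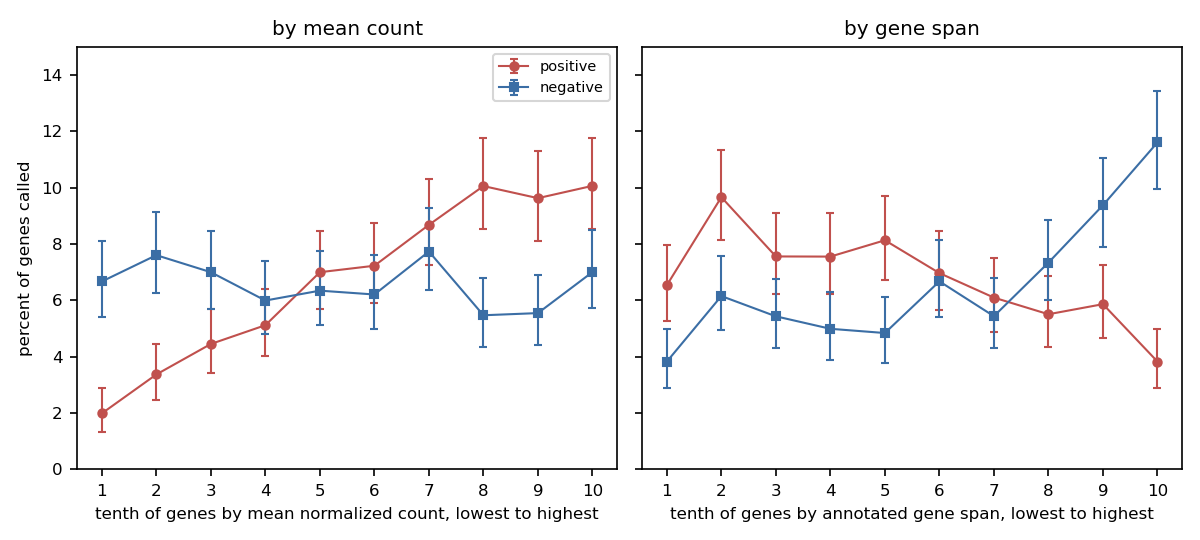
Percent of genes called positive (red circles) and negative (blue squares) in 10 equal classes of genes by mean count (left) and by annotated gene span (right), with exact 95% binomial intervals. Positive calls go from 1.98% to 10.1% with mean count, and negative calls from 3.82% to 11.6% with gene span.

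Genes of the X chromosome, taken from the same annotation, had 11 positive and 42 negative calls among 447, 2.46% (1.23 to 4.36) and 9.40% (6.86 to 12.5). Autosomal genes had 6.92% and 6.47%. X-linked genes also had a lower median mean count, 708 against 1129, and their median difference was -0.05 against -0.01 for autosomes. Xist, the RNA that coats the inactive X, had 0.07 ± 0.14 at a mean of 31777 counts in the authors' deposited table. Among autosomes, chromosome 15 had the largest share of positive calls (9.59%) and chromosome 3 the largest share of negative ones (9.08%).

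Neighbours were taken among the genes kept here, so genes of lower count may lie between them. Of 13627 such pairs, 280 had both genes called, and in 200 of them (71.4%) the signs were the same. The number to be had without any link between neighbours was not worked out. There were 21 runs of at least 3 called genes of 1 sign, 16 of them positive. Several runs are families that share sequence, such as the interferon genes Ifi206, Ifi214, Ifi213 and Ifi209, or Stfa2l1, Cstdc4 and Stfa2. Others join unrelated genes: Exosc5, B9d2, Tgfb1 and Ccdc97 on chromosome 7, all positive, and Slc12a3, Herpud1 and Nlrc5 on chromosome 8, all positive.

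Genes with an m6A peak in the authors' deposited peak table numbered 6781 of the 13715, and they had a higher median mean count (1905 against 548). Their shares of calls, 6.92% positive and 7.08% negative, were near those of genes without a peak, 6.60% and 6.04%. Within the 10 classes by mean count, the positive share was lower with a peak in 9 of 10 classes and the negative share was higher in 8 of 10. The widest gap in positive calls was in the eighth class, 7.60% with and 15.1% without a peak. Genes with a peak also had longer spans (median 30029 against 17203 bases), and the part of span in this pattern was not tested.

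Most SEs follow the mean count, so each SE was divided by the running median SE of genes of like mean count. Skeletal muscle markers had a median ratio of 4.90, and their median SE was 0.60 (quartiles 0.52 and 0.66). Among the 7186 genes with mean counts of 1000 or more, whose median SE was 0.12, 54 genes outside the marker lists had an SE within those quartiles. Of these, 46 had a negative sign, 8 were called, all negative, and their median was -1.14. The sarcomere genes Nrap and Myom2 were among them, with -2.02 ± 0.63 and -1.38 ± 0.66 in the authors' deposited table (chosen after their values were seen).

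**Figure D5:**
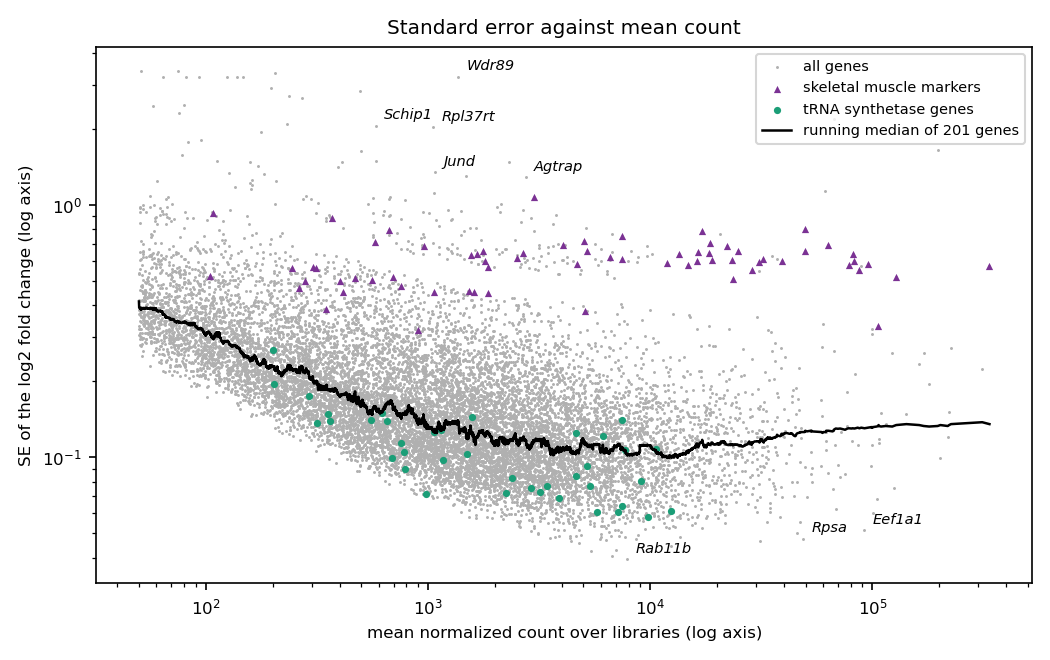
The SE of the log2 fold change against the mean normalized count, both on log axes, with the running median as a line. Skeletal muscle markers (triangles) lie around a median of 0.60, while tRNA synthetase genes (circles) mostly lie below the line.

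Some genes of high count had errors so wide that no difference could be seen. Of 9349 genes with a mean of at least 500, 140 had a ratio above 5, 43 of them in marker lists, and 12 of the 140 were called. Rpl37rt, a retrotransposed copy of a ribosomal gene, had 0.24 ± 2.03 at a mean of 1056 counts in the authors' deposited table, a ratio of 15.8. Schip1 had -0.90 ± 2.06, Srp54c -0.56 ± 1.48 and Agtrap -0.16 ± 1.29 in the authors' deposited table. Jund, a transcription factor of the AP-1 family, had 0.79 ± 1.35 in the authors' deposited table. Gene spans that overlap another gene were as common among the 138 annotated genes of this kind (45.7%) as among all annotated genes of that count (47.3%).

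The globin genes Hbb-bs and Hbb-b1 had means of 66975 and 196691 counts and SEs of 2.19 and 1.66 in the authors' deposited table, and near-identical copies may share their reads. Wdr89 had 0.47 ± 3.23 at a mean of 1365 counts and no p in the authors' deposited table; its span holds the pseudogene Rplp2-ps1, with -4.07 ± 1.01. No p was given for 14 genes in all. In 2 of these, Tdg-ps2 and E030003E18Rik, the fitted values were 23.3 and -23.5 in the authors' deposited table, which stand for no fold. The same holds for Evi2, which was called with 11.05 ± 2.90 in the authors' deposited table and overlaps Evi2a and Evi2b, and Pet117, with -5.03 ± 1.22, overlaps Kat14.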

How the data were processed

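Per the labels, RNA of wild type mouse bone was sequenced after ovariectomy or sham surgery, with 4 input libraries an arm. HISAT2, StringTie and DESeq are listed, per the submitters' processing notes, with no version or role, and so is rn6, a rat build, although the samples are mouse. Per the file headers, the authors deposited for each gene a mean normalized count (a signal averaged over libraries), a log2 fold change with its SE, a Wald score, its p-value and the adjusted value; no per-library value or depth is in the table. The m6A peaks and their fold enrichment ratio over input are also as the authors deposited them, and only the presence of a peak was used.

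No per-gene test was run here, and there is no estimate of spread other than the deposited SE. The deposited Wald score equalled the fold change over its SE, and Benjamini-Hochberg adjustment of the deposited p-values gave the adjusted ones back for 100% of the genes that carry one. Genes with a mean of at least 50 were kept, and those with an adjusted p under 0.05 were called; 95% intervals are the fold change and its SE on the normal scale. Lists are described by counts and medians beside those of all genes. The members, lists and rules were chosen with earlier results of these data known. Named genes are, outside marker lists and predicted or receptor segment genes, the 15 called genes a direction with the largest absolute fold change less the half-width of its 95% interval, the 10 with the largest Wald score, the 5 with the highest mean, up to 5 called genes a direction from each list (or the 2 with the highest mean where none was called), and the 10 with the highest SE ratio at a mean of at least 500; others are said to be chosen after their values were seen. Not every gene the rule takes is described, and some genes and 1 list are not reported here.

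Symbols were matched to RefSeq GRCm38.p6 (13648 of 13715), whose chromosome equalled that of the peak table for 6742 of 6749 genes; 10835 genes had a promoter window. Overlaps ignore strand. Recomputed tests were checked on simulated data. Python 3.11.15, numpy 2.4.6, pandas 2.3.3, scipy 1.17.1, statsmodels 0.14.6 and matplotlib 3.10.9 were used. Alternatives were other limits of mean count and adjusted p, other adjustments, a test against a log2 fold change of 0.25, recentring, and leaving out marker genes.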

Additional observations from a re-analysis of the deposited data

How the results depend on the processing

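No paired analysis was possible because the table holds no value of a single library, and for the same reason no library could be left out. The counts of 926 positive and 898 negative calls became 486 and 380 at an adjusted p under 0.01, and 71 and 57 when an absolute log2 fold change above 0.25 was tested. With a minimum mean count of 500, 782 positive and 591 negative calls were left. The positive share of calls was then 57.0%, against 50.8% with the minimum of 50, so the balance of signs depends on this limit. Recentring fold changes on genes with a mean of at least 50 gave 1041 and 836, and on genes with a mean of at least 1000 gave 788 and 1016, so which sign has more calls depends on the scaling. Every other alternative left both counts within 1.5 times. The median over all genes was -0.0236, -0.00618 and 0.0139 with minimum mean counts of 10, 100 and 500, and 0 and -0.0336 after the 2 recentrings. Of 55 genes named by size, p or mean count, 6 lost the call at 0.01, namely Lmnb1, Tubb5, Atp5a1, Aldoa, Pde4dip and Ddx3x. In the test against 0.25, 16 lost it, all of those 6 among them. Of the list counts, 144 of 172 changed by over 1.5 times in the test against 0.25 and 105 at 0.01. The other limit is the missing depth of single libraries: precision is known only through the SE, and in the lowest of 10 classes by mean count only 27 of 1365 genes were called positive.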
